A study of Mus musculus with 8 samples.

Results

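The 10 genes described here specify endothelium or carry its signals, and they were followed through chimaeric mouse embryos in which part of the cells lacked all TET enzymes. They are the receptors Kdr, Flt1, Tek and Tie1, the transcription factors Etv2, Fli1, Erg, Sox18 and Sox7, and the junction gene Cdh5. Members were chosen by name, and all 10 were found among the 55422 features of the count tables. The data are 10x Genomics single-cell RNA-seq of sorted embryo cells, with 4 Tet-TKO and 2 WT host libraries at embryonic day (E) 8.5 and 1 library of each genotype at E7.5. Tet-TKO cells descend from 1 mouse embryonic stem cell line without functional Tet1, Tet2 and Tet3, of background C57BL/6J-129Sv, which was injected into C57BL/6J blastocysts. They carry a CAG-driven H2B-tdTomato label and were sorted as tdTomato-positive cells. WT host cells are the tdTomato-negative cells of the same kind of embryo, of background C57BL/6J. Embryos were pooled before sorting, and only DAPI-negative singlets entered a library. Genotype, strain, label, the culture history of the line and the sort fraction therefore change together and cannot be told apart. The libraries are the replicates, and nothing in the labels says that they came from separate pools of embryos, so p-values measure the spread between these libraries.

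Blood vessels of the embryo arise when mesodermal cells take up VEGF signals and turn into angioblasts, some of which share their origin with blood. Kdr (VEGFR2) is the main signalling receptor for VEGF-A and is already present on early mesoderm. Flt1 (VEGFR1) binds VEGF-A tightly but signals weakly and acts largely as a decoy. Tek (Tie2) is the receptor for angiopoietins, and Tie1 is its orphan partner. Etv2 is an ETS factor that acts transiently at the start of the haematoendothelial lineage, while the related ETS factors Fli1 and Erg maintain endothelial expression later. Sox7 and Sox18 are SOXF factors of early endothelium. Cdh5 encodes VE-cadherin, the adhesion molecule of endothelial junctions. TET enzymes oxidise methylated cytosine and so take part in DNA demethylation, and the comparison of Tet-TKO with WT host cells asks how the cells fare without them.

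All coordinates are in GRCm38 with the gene models of GENCODE M21. Kdr lies on chromosome 5, 75932827 to 75978458, minus strand, and Flt1 on chromosome 5, 147561604 to 147726011, minus strand. Tek lies on chromosome 4, 94739289 to 94874976, plus strand, and Tie1 on chromosome 4, 118471191 to 118490061, minus strand. Etv2 is on chromosome 7, 30633616 to 30635852, minus strand, Fli1 on chromosome 9, 32422204 to 32542861, minus strand and Erg on chromosome 16, 95359169 to 95586593, minus strand. Sox18 is on chromosome 2, 181669836 to 181671640, minus strand, Sox7 on chromosome 14, 63943673 to 63950732, plus strand and Cdh5 on chromosome 8, 104101625 to 104144511, plus strand. Kdr, Flt1 and Etv2 are shown with the bases upstream of their start, because Etv2 is an ETS factor and its own promoter and those of both VEGF receptors can be read for the ETS core. The sequences are from RefSeq (GRCm38.p6), 5′ to 3′ on the gene's strand, all of them on the minus strand, and capitals mark GGAA or its complement TTCC. For Kdr the 3 bases next to the start, which fall inside the GENCODE gene model, were left out.
Kdr chr5:75978459-75978705: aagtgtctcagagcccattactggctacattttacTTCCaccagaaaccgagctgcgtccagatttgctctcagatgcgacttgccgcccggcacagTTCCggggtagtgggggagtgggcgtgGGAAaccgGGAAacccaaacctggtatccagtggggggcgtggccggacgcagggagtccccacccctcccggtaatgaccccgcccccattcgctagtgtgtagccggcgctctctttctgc
Flt1 chr5:147726012-147726261: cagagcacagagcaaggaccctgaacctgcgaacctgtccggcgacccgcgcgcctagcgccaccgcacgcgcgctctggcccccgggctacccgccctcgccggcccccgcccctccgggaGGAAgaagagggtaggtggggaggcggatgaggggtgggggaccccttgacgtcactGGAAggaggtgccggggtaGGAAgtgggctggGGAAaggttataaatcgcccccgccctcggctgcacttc
Etv2 chr7:30635853-30636102: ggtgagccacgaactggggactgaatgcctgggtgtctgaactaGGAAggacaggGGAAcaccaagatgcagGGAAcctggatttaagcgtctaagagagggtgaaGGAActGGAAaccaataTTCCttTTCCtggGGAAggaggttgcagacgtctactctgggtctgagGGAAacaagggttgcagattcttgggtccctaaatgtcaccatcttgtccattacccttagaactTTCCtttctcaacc
In the 250 bases upstream, Etv2 holds 10 such cores, a number reached by 0.192% of the 32841 RefSeq promoters. Kdr and Flt1 hold 4 each, which 33.4% of promoters reach, and Tek holds 2, which 76.8% reach. Erg has 3 entries, and the 1 read here, outside the gene model, holds 0. At least 1 core is found in 93.5% of all promoters, with a median of 3. These letter matches are a description of the window only. Of the 10 genes, 6 had a promoter entry, and that of Tie1 was left out because its bases lie mostly inside the gene model.

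Each E8.5 library held 65601218 to 136982886 UMIs (deduplicated transcript counts), and both E7.5 libraries held 103814649 to 105670868. Cells kept per library ranged from 1008 to 9545 for Tet-TKO and from 8258 to 9038 for WT host at E8.5. Tet-TKO libraries 3 and 4 had the fewest cells and the deepest ones, so cell numbers limit their sums, and the median UMIs per cell ran from 12178 to 68931 over the Tet-TKO libraries. Levels are given as CPM, in which the UMIs of a gene are scaled to the UMI total of the same cell group and library. tdTomato stood at 93.2 to 144 CPM in the Tet-TKO and 0.501 to 0.959 CPM in the WT host libraries at E8.5, and at 71.4 and 0.443 CPM at E7.5, so the sort matched the labels. Transcripts of Tet1, Tet2 and Tet3 were still counted in Tet-TKO cells at E8.5. Tet1 stood at 9.99 to 20.8 CPM in Tet-TKO and 20.5 to 22.5 CPM in WT host libraries, Tet2 at 5.59 to 10.5 CPM and 4.64 to 4.68 CPM, and Tet3 at 22.5 to 37.5 CPM and 23.1 to 23.3 CPM, which checks nothing, since tags from transcript ends need not cover the edited sites. Between any pair of libraries 0 to 28 cell barcodes were shared.

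Cells were clustered without the 10 genes and without the pathway list described later, and clusters were named from lists of marker genes that hold none of the 10. At E8.5, 37190 cells fell into 54 clusters. The endothelium-like class joined cluster 26 (593 cells, led by Lyve1, Emcn, Gpr182 and Icam2) and cluster 28 (560 cells, led by Ctla2a, Igf1, Cdh5 and Gimap4). The genotypes filled it differently: cluster 26 held 14% of the Tet-TKO and 90.9% of the WT host cells of the class. No E8.5 cluster was named haematoendothelial progenitor-like. Cluster 12 (1006 cells, led by Gja4, Etv2, Hhex and Sox7) came nearest, since haematoendothelial progenitor markers were raised there by a mean log2 fold of 2.86 over the other clusters, but endothelium markers were raised by 2.82. It is called cluster 12 here and took the place of that class, a choice made after its markers were seen. At E7.5, 12652 cells were kept and 1 cluster was haematoendothelial progenitor-like.

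Of the 10 genes, 7 were highest in the endothelium-like class and the others in cluster 12, in both genotypes, among 28 classes or clusters with both WT host libraries and 24 with at least 3 Tet-TKO libraries. The order is that of group means, and Kdr, Etv2 and Sox7 were the 3 that peaked in cluster 12. For Sox18 the WT host ranges of the endothelium-like class (112 and 128 CPM) and of cluster 12 (109.7 and 124 CPM) overlapped, with the reverse order in WT host library 1, and for Kdr, Sox7 and Fli1 the Tet-TKO ranges of both groups overlapped. Etv2 reached 497 and 672 CPM in the 2 WT host libraries there, 164 and 203 CPM in the endothelium-like class, 84.6 and 124 CPM in the allantois-like class and 53.3 and 96.8 CPM in the pharyngeal mesoderm-like class. The last 2 ranges overlapped. Kdr stood at 361 and 395 CPM in cluster 12 and 262 and 285 CPM in the endothelium-like class, then at 59.5 and 146 CPM in cluster 40, 64.7 and 106 CPM in cluster 35 and 75.3 and 83.5 CPM in the allantois-like class, where neighbours in the order overlapped. Clusters 40 and 35 stayed unnamed for few UMIs per cell, and held 21 and 42 and 31 and 47 cells in the WT host libraries. Cdh5 was counted in fewer groups, with 236 and 251 CPM in the endothelium-like class, 65.2 and 70.2 CPM in the myeloid-like class and 61 and 62.9 CPM in cluster 12, and the class next in order, the cardiomyocyte-like class, had 1.82 and 4.97 CPM. Tie1 was likewise high in the myeloid-like class (25.1 and 34.8 CPM), which comes second for that gene, against 54.5 and 60.9 CPM in the endothelium-like class. The WT host libraries held 190 myeloid-like cells and the Tet-TKO libraries 2, too few for a Tet-TKO level. In this class, cluster 41, myeloid markers were raised by a mean log2 fold of 4.21, megakaryocyte markers by 3.70 and endothelium markers by 1.64. Which of its cells carry Cdh5 and Tie1 was not tested. Flt1 had another source outside the vascular classes, the surface ectoderm-like class, at 24.4 and 27 CPM.

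Together the endothelium-like class and cluster 12 supplied most UMIs of the endothelium-restricted genes. In the WT host libraries the median share was 81.9% for Sox18, 80.6% for Cdh5, 73.8% for Erg and 73.3% for Tie1. For Kdr it was 51.4%, for Etv2 48.7% and for Tek 40.3%. For Fli1 it was 63.9%, for Flt1 55.4% and for Sox7 67.1%. Tet-TKO medians were higher for Cdh5 (87.9%), Erg (80.9%), Tie1 (85.8%), Sox7 (88.9%) and Tek (57.5%) and lower for Kdr (46.8%), Flt1 (45.9%) and Fli1 (57.6%). For Etv2 the Tet-TKO median was 48.5% and for Sox18 82.6%, with 59.9% in the lowest library. The library ranges of the genotypes overlapped for Erg, Tie1, Tek, Flt1, Fli1, Etv2 and Sox18. These shares were not tested.

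In the endothelium-like class at E8.5 no receptor differed between genotypes by the call used here, an edgeR adjusted p under 0.01 with an absolute log2 fold change of at least 1. Of the 10 genes, 0 were called, whereas 0.886% of the 10605 genes tested were. Unadjusted, 4 of the 10 had p under 0.05, beside 11.2% of all genes tested, and DESeq2 also called 0. Kdr stood at 260.5, 284, 433 and 394 CPM in the Tet-TKO libraries and at 285 and 262 CPM in the WT host libraries. The Tet-TKO values spanned both sides of the WT host values, with their highest in libraries 3 and 4 (log2 fold change 0.31, SE 0.19, edgeR adjusted p = 0.592). Flt1 stood at 92.2, 99.8, 175 and 85.7 CPM in the Tet-TKO libraries and at 165 and 208 CPM in the WT host libraries. Tet-TKO libraries 1, 2 and 4 were below both WT host libraries and library 3 lay between them (log2 fold change -0.71, SE 0.23, edgeR adjusted p = 0.194). Tek, at 52.4, 62.4, 110.2 and 65.9 CPM in the Tet-TKO libraries and at 70.3 and 78 CPM in the WT host libraries, and Tie1, at 49.9, 55, 69.1 and 47.4 CPM in the Tet-TKO libraries and at 54.5 and 60.9 CPM in the WT host libraries, overlapped between the genotypes. Their log2 fold changes were -0.045 (SE 0.23) and -0.041 (SE 0.17).

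Among the transcription factors, Sox18 and Fli1 were below both WT host libraries in every Tet-TKO library without reaching the call. Sox18 stood at 71.3, 61, 109.6 and 48.8 CPM in the Tet-TKO libraries and at 112 and 128 CPM in the WT host libraries (log2 fold change -0.70, SE 0.22, edgeR adjusted p = 0.202). Fli1 stood at 157, 148, 141 and 139.7 CPM in the Tet-TKO libraries and at 191 and 180.2 CPM in the WT host libraries (log2 fold change -0.33, SE 0.14, edgeR adjusted p = 0.431). Cdh5, the VE-cadherin gene, showed the same order, with 184, 188, 228 and 187 CPM in the Tet-TKO libraries and at 236 and 251 CPM in the WT host libraries (log2 fold change -0.30, SE 0.13, edgeR adjusted p = 0.436). Those 3 of the 10 genes are to be read against the background, since 13.9% of all genes tested had every Tet-TKO library below both WT host libraries. Sox7 (29 to 37.6 CPM in Tet-TKO, 31.7 and 37.4 CPM in WT host) and Erg (23 to 68 CPM against 27.1 and 28.1 CPM) overlapped.

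Whether Etv2 was called in the class depended on Tet-TKO library 4 and on the processing. Etv2 stood at 77.6, 75.5, 65.8 and 274 CPM in the Tet-TKO libraries and at 164 and 203 CPM in the WT host libraries. Tet-TKO libraries 1 to 3 were below both WT host libraries, and library 4, whose sum comes from 20 cells, was above them. With all libraries the log2 fold change was -0.69 (SE 0.44, edgeR adjusted p = 0.629). Without Tet-TKO library 4 it was -1.29 (edgeR adjusted p = 0.00227), which passes the call. It also passed when libraries were clustered without batch correction (log2 fold change -1.24, edgeR adjusted p = 0.00132) and with the replicate number as a block, in which Tet-TKO libraries 3 and 4 have no WT host counterpart (log2 fold change -1.19, edgeR adjusted p = 2.63e-24). Of the 20 cells of library 4, 14 were in cluster 26, unlike in the other Tet-TKO libraries. The median log2 fold change over the 10 genes was -0.17, against 0.00725 over all genes tested.

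**Figure D1:**
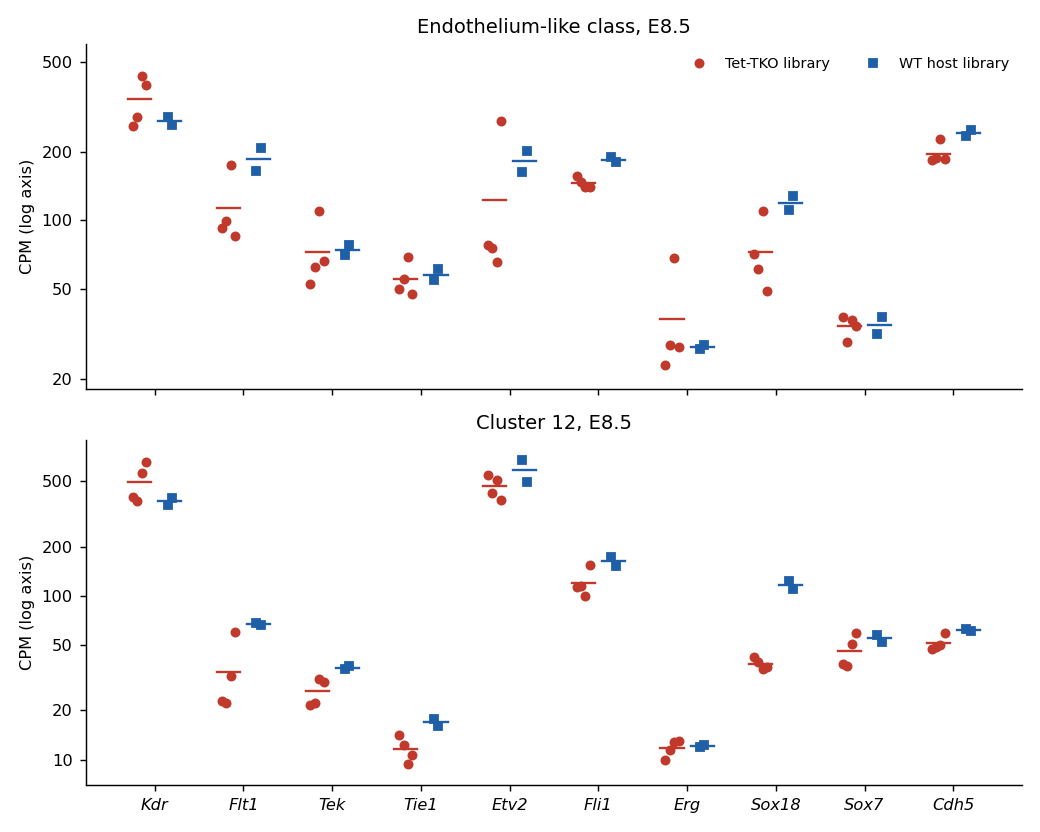
CPM of the 10 genes (log axis) in each E8.5 library, for the endothelium-like class (top) and cluster 12 (bottom). Circles are Tet-TKO and squares WT host libraries, and bars are group means. The 4 Tet-TKO values of Sox18 in cluster 12 (35.6 to 42.4 CPM) sit below both WT host values, whereas Kdr and Erg overlap in both panels.

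Several marker lists of the class moved with genotype too. The 10 endothelium markers summed to 2073 to 3084 CPM in Tet-TKO and 3426 to 3562 CPM in WT host libraries, with 6 of the 10 below both WT host libraries in every Tet-TKO library and 1, Icam2, called lower. The 8 erythroid markers, among them haemoglobin genes, summed to 7.91 to 85.1 CPM in Tet-TKO and 591 to 1423 CPM in WT host libraries. The erythroid markers stood at about the same levels in the spinal cord-like class, at 6.41 to 38.3 CPM in Tet-TKO and 548 to 1383 CPM in WT host libraries. In the endothelium-like class the 8 myeloid markers summed to 5.27 to 10.7 CPM in Tet-TKO and 25.8 to 39.9 CPM in WT host libraries, the 6 megakaryocyte markers to 3.28 to 7.87 CPM in Tet-TKO and 14.5 to 18.2 CPM in WT host libraries and the 7 blood progenitor markers to 38.8 to 51.4 CPM in Tet-TKO and 58.4 to 68.2 CPM in WT host libraries, all lower in every Tet-TKO library. Haematoendothelial progenitor markers overlapped between genotypes, at 1316 to 1587 CPM in Tet-TKO and 1534 to 1600 CPM in WT host libraries. So did allantois markers, at 5.06 to 13.7 and 6.77 to 8.86 CPM. The part of these marker levels in the values of the 10 genes was not tested.

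Because the genotypes filled clusters 26 and 28 so unequally, both were also tested alone, a choice made after the clusters were seen. The 2 clusters gave different pictures for several genes. In cluster 26, 83 Tet-TKO cells (11 to 42 per library) were compared with 510 WT host cells. There edgeR called 0 of the 10 genes (0.389% of 6163 genes tested), 5 had an unadjusted p under 0.05, beside 13.6% of all genes, and DESeq2 called 1, Flt1, beside 0.535% of all genes. Flt1 stood at 84.5, 102, 104 and 50.2 CPM in the Tet-TKO libraries and at 181 and 215 CPM in the WT host libraries, with every Tet-TKO library below both WT host libraries (log2 fold change -1.14, SE 0.22, edgeR adjusted p = 0.0263 and DESeq2 adjusted p = 0.00448). Cdh5 stood at 88.1, 98.7, 173 and 14.3 CPM in the Tet-TKO libraries and at 252 and 258 CPM in the WT host libraries (log2 fold change -1.34, SE 0.38, edgeR adjusted p = 0.111). Its lowest value, that of Tet-TKO library 4, comes from only 14 cells. Sox18 had a log2 fold change of -0.78 and Tie1 of -0.75. In all, 6 of the 10 genes were below both WT host libraries in every Tet-TKO library, against 13.2% of all genes tested. Kdr went the other way, at 352, 347, 376 and 569.7 CPM in the Tet-TKO libraries and at 299.8 and 265 CPM in the WT host libraries (log2 fold change 0.55, SE 0.20, edgeR adjusted p = 0.237), and was the 1 member above both WT host libraries in every Tet-TKO library, as were 7.77% of all genes tested. Several marker lists moved with genotype in cluster 26 as well. Endothelium markers summed to 1544 to 2677 CPM in Tet-TKO and 3571 to 3585 CPM in WT host libraries, with 6 of 10 below both WT host libraries in every Tet-TKO library. Erythroid markers summed to 7.17 to 70.5 CPM in Tet-TKO and 595 to 1422 CPM in WT host libraries, blood progenitor markers to 3.58 to 42.3 CPM in Tet-TKO and 58.2 to 69.1 CPM in WT host libraries and myeloid markers to 0 to 12.7 CPM in Tet-TKO and 28.2 to 40.3 CPM in WT host libraries. Haematoendothelial progenitor markers overlapped there, at 1481 to 1994 CPM in Tet-TKO and 1576 to 1624 CPM in WT host libraries. So did allantois markers, at 4.23 to 25.1 and 7.09 to 10.2 CPM. The part of these markers in the values of cluster 26 was not tested.

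In cluster 28, which 3 Tet-TKO libraries entered (library 4 had 6 cells), the WT host sums came from 34 and 17 cells. Again 0 of the 10 genes were called by edgeR (0.0474% of 8447 genes tested), 3 had an unadjusted p under 0.05, beside 4.12% of all genes, and DESeq2 called 0. Flt1 stood at 92.7, 99.4 and 201 CPM in the Tet-TKO libraries and at 60.4 and 70.7 CPM in the WT host libraries (log2 fold change 0.95, SE 0.37, edgeR adjusted p = 0.984). Cdh5 stood at 191, 205 and 248 CPM in the Tet-TKO libraries and at 131 and 110 CPM in the WT host libraries (log2 fold change 0.73, SE 0.24, edgeR adjusted p = 0.984). Both had every Tet-TKO library above both WT host libraries, as had Kdr and Etv2. These 4 of 10 stand beside 18.3% of all genes tested. Flt1 and Cdh5 had opposite signs in the 2 clusters, a difference that was not itself tested. In the whole class, the sums of Tet-TKO libraries 1 to 3 came mostly from cluster 28, and those of Tet-TKO library 4 and the WT host libraries mostly from cluster 26. Etv2 was higher in cluster 26 than in cluster 28 in every library that had both sums (369.9, 266 and 95.1 against 57.4, 40.5 and 55.1 CPM in Tet-TKO libraries 1 to 3, 183 and 211 against 40.3 and 31.4 CPM in WT host). Within each cluster its log2 fold change was positive, 0.82 in cluster 26 and 0.37 in cluster 28, opposite in sign to that of the whole class. The former value includes Tet-TKO library 4, which stood at 688 CPM in cluster 26 from 14 cells. Endothelium markers overlapped in cluster 28, at 2420 to 3197 CPM in Tet-TKO and 2396 to 3380 CPM in WT host libraries. Haematoendothelial progenitor markers were above both WT host libraries in every Tet-TKO library, at 1269 to 1625 against 1093 to 1266 CPM. Erythroid markers were below them, at 15.3 to 87.7 against 564 to 1438 CPM. Blood progenitor markers were too, at 42.4 to 49.9 against 62.4 to 62.9 CPM. The part of these markers was not tested.

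**Figure D2:**
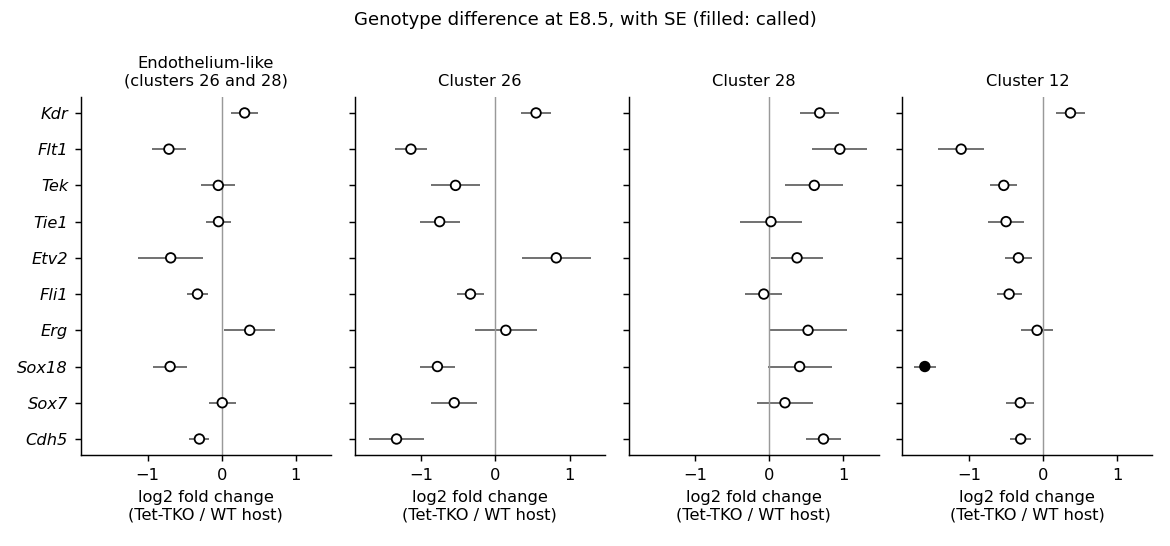
Log2 fold change of Tet-TKO over WT host with its SE for the 10 genes at E8.5, in the endothelium-like class, its clusters 26 and 28, and cluster 12. Filled circles pass the call. Flt1 and Cdh5 lie left of 0 in cluster 26 (-1.14 and -1.34) and right of it in cluster 28 (0.95 and 0.73), and Sox18 in cluster 12 is the only filled point.

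Sox18 fell in Tet-TKO cells of cluster 12, to 0.330 of the WT host level (log2 fold change -1.60, SE 0.15, edgeR adjusted p = 0.000534). It stood at 42.4, 39.3, 35.6 and 36.6 CPM in the Tet-TKO libraries and at 124 and 109.7 CPM in the WT host libraries. The Tet-TKO libraries lay within a narrow range (38.5 ± 3.03 CPM (SD, n = 4)), below the WT host libraries (117 ± 10.1 CPM (SD, n = 2)). Sox18 was the 1 gene of the 10 that was called, against 0.951% of the 10305 genes tested and 0.553% called lower. With either WT host library left out it missed the threshold (edgeR adjusted p = 0.023 without library 1 and 0.0118 without library 2), with log2 fold changes of -1.49 and -1.71.

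Of the receptors in cluster 12, Flt1, Tek and Tie1 were below the WT host values in every Tet-TKO library, and Kdr was not. Flt1 stood at 22.6, 22.2, 32.6 and 60.2 CPM in the Tet-TKO libraries and at 68.6 and 66.5 CPM in the WT host libraries. All Tet-TKO libraries were below both WT host libraries, although library 4, with 16 cells, came close to them, and the difference did not pass the call (log2 fold change -1.11, SE 0.31, edgeR adjusted p = 0.119). Without library 4 it did (log2 fold change -1.43, edgeR adjusted p = 0.00171). Tek stood at 21.5, 22.2, 30.9 and 29.7 CPM in the Tet-TKO libraries and at 35.7 and 37.1 CPM in the WT host libraries (log2 fold change -0.53, SE 0.18, edgeR adjusted p = 0.226). Tie1 stood at 14.1, 12.2, 9.44 and 10.7 CPM in the Tet-TKO libraries and at 17.7 and 16 CPM in the WT host libraries (log2 fold change -0.50, SE 0.24, edgeR adjusted p = 0.423). Neither passed the call. Kdr stood at 400, 378, 562 and 654 CPM in the Tet-TKO libraries and at 361 and 395 CPM in the WT host libraries, and its values overlapped, with libraries 1, 3 and 4 above both WT host libraries and library 2 between them (log2 fold change 0.37, SE 0.19, edgeR adjusted p = 0.473).

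Etv2, the factor that opens this lineage, stood at 549, 427, 511 and 386 CPM in the Tet-TKO libraries and at 672 and 497 CPM in the WT host libraries (log2 fold change -0.34, SE 0.18, edgeR adjusted p = 0.493). Its values overlapped. Fli1 stood at 113, 115, 99.5 and 153 CPM in the Tet-TKO libraries and at 173 and 152 CPM in the WT host libraries (log2 fold change -0.46, SE 0.17, edgeR adjusted p = 0.264), overlapping through Tet-TKO library 4. Sox7, the SOXF factor related to Sox18, stood at 38.3, 37.1, 50.6 and 59.5 CPM in the Tet-TKO libraries and at 57.7 and 52.3 CPM in the WT host libraries (log2 fold change -0.31, SE 0.19, edgeR adjusted p = 0.551), and its values overlapped as well. Erg ranged from 9.96 to 13 CPM in Tet-TKO libraries around the 12 and 12.4 CPM of WT host libraries. Cdh5 stood at 47.2, 48.5, 49.8 and 59.5 CPM in the Tet-TKO libraries and at 62.9 and 61 CPM in the WT host libraries (log2 fold change -0.31, SE 0.14, edgeR adjusted p = 0.41), with all Tet-TKO values below. With Flt1, Tek, Tie1, Sox18 and Cdh5, 5 of the 10 genes had every Tet-TKO library below both WT host libraries, against 13.1% of all genes tested. The median log2 fold change of the 10 was -0.40 and that of all genes 0.0127.

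Endothelium markers were lower in Tet-TKO cells of cluster 12 as well. The 10 of them summed to 1058 to 1456 CPM in Tet-TKO and 1852 to 2031 CPM in WT host libraries, 8 of the 10 were below both WT host libraries in every Tet-TKO library, and 2, Plvap and Pecam1, were called lower. The 8 haematoendothelial progenitor markers summed to 1271 to 1479 CPM in Tet-TKO and 1704 to 1913 CPM in WT host libraries. The 7 allantois markers went the other way, at 289.7 to 492 CPM in Tet-TKO and 172 to 257 CPM in WT host libraries, and the 8 erythroid markers summed to 6.10 to 53.4 CPM in Tet-TKO and 527 to 1421 CPM in WT host libraries. Myeloid markers summed to 0 to 1.52 CPM in Tet-TKO and 4.36 to 5.43 CPM in WT host libraries, with Csf1r and Ptprc at 0 in all libraries. Blood progenitor markers summed to 3.43 to 12.4 CPM in Tet-TKO and 19.6 to 23.7 CPM in WT host libraries. For megakaryocyte markers the sums were 0.762 to 3.43 and 10.5 to 12.6 CPM. The part of these marker levels in the difference of Sox18 was not tested.

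At equal depth the share of cells with a Sox18 UMI gave the same order. With 5000 UMIs drawn from every cell that had as many, Sox18 was counted in 14.9, 14.6, 14.9 and 12.5% in the Tet-TKO libraries and 43.8 and 35.5% in the WT host libraries in cluster 12. Over the 4 Tet-TKO libraries the exact 95% binomial intervals ran from 1.55 to 38.3%, and over the WT host libraries from 28.3 to 51.1%. Unthinned shares were 34.5, 32.9, 51.1 and 75% and 70.0 and 61.4%, at median depths of 21559, 15604, 49672 and 93394 UMIs in Tet-TKO and 16525 and 15705 UMIs in WT host libraries, so the deepest Tet-TKO library reached the highest unthinned share. For Flt1 the thinned shares in cluster 12 were 9.95, 8.84, 14.9 and 25% in the Tet-TKO libraries and 26.8 and 25.3% in the WT host libraries. In the endothelium-like class, Sox18 was counted in 27.1, 26.4, 39 and 33.3% in the Tet-TKO libraries and 39.4 and 43.6% in the WT host libraries, and Flt1 in 34.9, 39.4, 53.7 and 41.7% in the Tet-TKO libraries and 53.7 and 58.7% in the WT host libraries. Spinal cord-like cells, which should lack both genes, gave 1.12 to 2.90% for Sox18 and 0 to 1.69% for Flt1 over all 6 libraries after the same thinning. Unthinned they gave 1.60 to 7.52% and 0.559 to 6.85%, at median depths of 12209 to 69296 UMIs. All thinned shares in the vascular groups were above those of the spinal cord-like cells. Erythroid-like cells, the other background group, gave 0 to 13.5% over the members, not split by gene here. The lowest vascular shares lie inside that range. For Flt1, 2 libraries had 0 positive spinal cord-like cells, of 69 and 177, with upper bounds of 5.21 and 2.06%. Thinning left out 76 to 516 shallower cells per Tet-TKO and 552 and 724 per WT host library. These intervals cover counting error only.

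**Figure D3:**
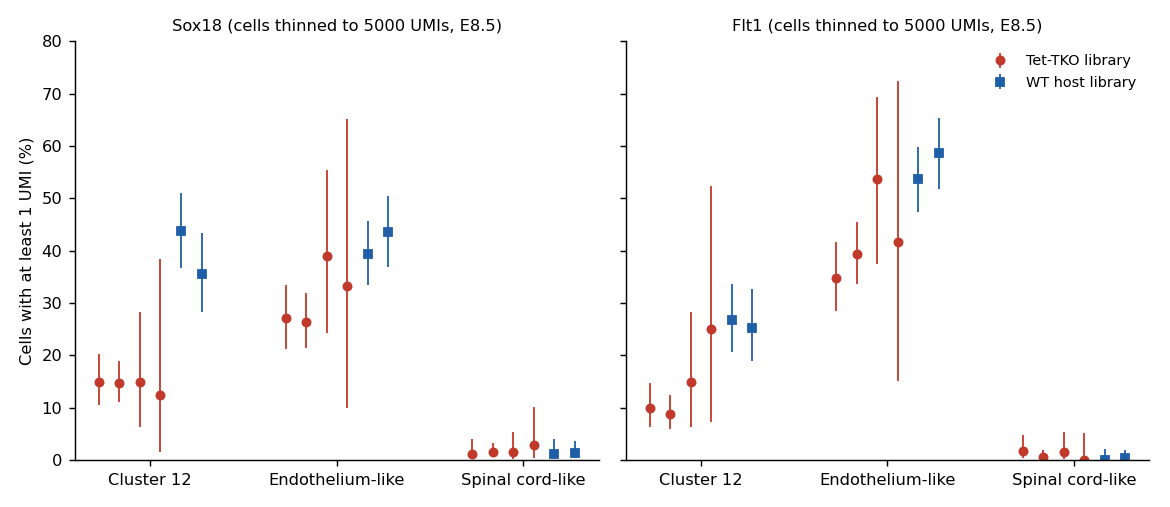
Share of cells (%) with at least 1 UMI of Sox18 (left) or Flt1 (right) in each E8.5 library after thinning to 5000 UMIs, with exact 95% binomial intervals. Circles are Tet-TKO and squares WT host libraries. Sox18 in cluster 12 lies between 12.5 and 14.9% in Tet-TKO libraries and at 43.8 and 35.5% in WT host libraries, and spinal cord-like cells are at 2.90% or below for Sox18 and 1.69% or below for Flt1.

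Whether a gene's genotype difference was larger in cluster 12 than in the endothelium-like class was tested with an interaction term. For Sox18 the log2 difference between the 2 effects was 0.87 (SE 0.21, unadjusted p = 0.000679, edgeR adjusted p = 0.0855, 6 libraries), which does not pass the threshold. For Flt1 it was 0.49 (SE 0.28, edgeR adjusted p = 0.642). Of the 10 genes 0 were called, against 0.0892% of 11207 genes tested, and 2 had an unadjusted p under 0.05, beside 9.23% of all genes. Without Tet-TKO library 4, 1 member, Etv2, was called. The difference of Sox18 called in cluster 12 and not in the endothelium-like class is therefore not shown to be particular to cluster 12.

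At E7.5, a day earlier, Tet-TKO cells of the haematoendothelial progenitor-like class had lower Flt1, Tek and Sox18 than WT host cells, while the intervals for Kdr, Etv2 and Sox7 included a ratio of 1. With 1 library per genotype there is no test, and the intervals below cover counting error only. The class had 111 Tet-TKO and 168 WT host cells. Flt1 stood at 26.1 CPM in Tet-TKO and 122 CPM in WT host cells, a ratio of 0.214 (95% interval 0.165 to 0.275). Tek stood at 6.03 CPM in Tet-TKO and 25.7 CPM in WT host cells, a ratio of 0.235 (95% interval 0.131 to 0.399). Tie1 was too low to place, with 4 and 7 UMIs. Kdr stood at 233 CPM in Tet-TKO and 240.5 CPM in WT host cells, a ratio of 0.971 (95% interval 0.871 to 1.08).

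Among the transcription factors at E7.5, Sox18 stood at 8.37 CPM in Tet-TKO and 28.7 CPM in WT host cells, a ratio of 0.292 (95% interval 0.178 to 0.464). Erg had a ratio of 0.403 (95% interval 0.192 to 0.801) and Fli1 of 0.713 (95% interval 0.604 to 0.842), both below 1. Etv2 stood at 354 CPM in Tet-TKO and 338 CPM in WT host cells, a ratio of 1.05 (95% interval 0.957 to 1.14), and Sox7 had a ratio of 1.07 (95% interval 0.807 to 1.41). For Cdh5 the ratio was 0.571 (95% interval 0.358 to 0.900). When all variable genes, the 10 included, defined the clusters, the ratios of Etv2, Fli1 and Sox7 became 0.686, 1.13 and 1.69, those of Cdh5 and Tek 0.891 and 0.372, and Flt1 stood at 0.315. The stages differ in clustering and number of libraries and were not compared by a test. Endothelium markers summed to 525 CPM in Tet-TKO and 738 CPM in WT host cells of this class, haematoendothelial progenitor markers to 1017 and 1291 CPM, blood progenitor markers to 93.1 and 166 CPM and erythroid markers to 7.03 and 26.1 CPM. Allantois markers went the other way, at 60.6 and 27.2 CPM, and myeloid and megakaryocyte markers stood at 1.00 and 7.44 CPM and at 0.335 and 4.47 CPM, lower in Tet-TKO cells. Their part in the ratios was not tested.

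**Figure D4:**
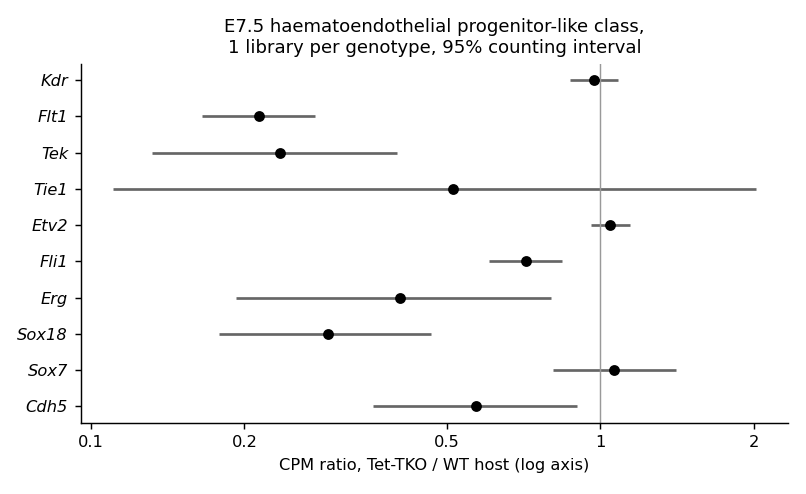
CPM in Tet-TKO over WT host cells (log axis) for the 10 genes in the haematoendothelial progenitor-like class at E7.5, with 95% counting intervals. Flt1 (0.214), Tek (0.235) and Sox18 (0.292) lie farthest below 1, and the intervals of Kdr, Etv2, Sox7 and Tie1 include 1.

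Other E7.5 classes gave Flt1 on both sides of the WT host level, with 95% counting intervals in parentheses. In the blood progenitor-like class Flt1 stood at 10.2 CPM (4.90 to 18.8) in Tet-TKO and 36.7 CPM (29.7 to 44.9) in WT host cells. That class joined E7.5 cluster 24 (33 Tet-TKO and 145 WT host cells) and cluster 35 (0 and 18). In the gut-like class it stood at 35.4 CPM (26.9 to 45.7) in Tet-TKO and 17.9 CPM (13.7 to 23) in WT host cells, higher in Tet-TKO cells. Tek in the blood progenitor-like class stood at 9.19 CPM (4.2 to 17.5) in Tet-TKO and 22.6 CPM (17.2 to 29.3) in WT host cells. Kdr and Etv2 were also present in cluster 6 of E7.5, an unnamed cluster with 471 Tet-TKO and 85 WT host cells, at 96.1 CPM (90.7 to 102) in Tet-TKO and 109 CPM (91.3 to 128) in WT host cells for Kdr. Etv2 stood there at 115 CPM (109 to 121) in Tet-TKO and 62.2 CPM (49.2 to 77.5) in WT host cells. Etv2 was lower in Tet-TKO cells of cluster 17, an unnamed E7.5 cluster, at 25 CPM (17 to 35.5) in Tet-TKO and 92.5 CPM (83.5 to 102) in WT host cells, and of the allantois-like class, at 71.6 CPM (64.8 to 79) in Tet-TKO and 92.1 CPM (82.2 to 103) in WT host cells. In the blood progenitor-like class it stood at 77.6 CPM (61.2 to 97.2) in Tet-TKO and 42.2 CPM (34.6 to 50.9) in WT host cells, so its direction varied between classes. Kdr was lower in the allantois-like class too, at 29.2 CPM (24.9 to 34.1) in Tet-TKO and 39.9 CPM (33.4 to 47.2) in WT host cells. The allantois-like class joined E7.5 cluster 15 (212 Tet-TKO and 141 WT host cells) and cluster 31 (0 and 83), which were not compared apart. In whole E7.5 libraries Kdr stood at 29.8 CPM (28.8 to 30.8) in Tet-TKO and 15.8 CPM (15.1 to 16.6) in WT host cells. In the same libraries Etv2 stood at 46.8 CPM (45.5 to 48.2) in Tet-TKO and 27.7 CPM (26.7 to 28.7) in WT host cells, and Tek at 0.447 CPM (0.328 to 0.594) in Tet-TKO and 2.39 CPM (2.10 to 2.70) in WT host cells. The make-up of these libraries differed, and in such sums the share of a cell type and the RNA per cell cannot be told apart. The ExE ectoderm-like class took 0.254% of the cells in the Tet-TKO library and 26.4% in the WT host library. The forebrain-like class took 0.0544% and 12.4%, and the epiblast-like class went the other way, at 8.78% and 2.18%. For E8.5 the study inferred a slight delay of Tet-TKO embryos, with E8.25 the more probable match. The part of developmental stage in the E7.5 values and ratios was not tested.

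Outside the vascular groups, 4 further calls were made among the 10 genes at E8.5, 2 of them in the blood progenitor-like class. In all, 85 fits of a member in 22 classes gave 5 calls, and 0.661% of the 215148 fits of any gene in those classes gave a call. Blood progenitor-like cells came from different clusters by genotype. Cluster 18 held 99.6% of the Tet-TKO and 6.05% of the WT host cells, the others being in cluster 7. Leading genes of cluster 7 include Klf1 of the erythroid markers and Gata1 and Cited4 of the blood progenitor markers. In the class, Fli1 stood at 55.4, 43.2, 41.7 and 45.2 CPM in the Tet-TKO libraries and at 9.72 and 8.85 CPM in the WT host libraries (log2 fold change 2.16, SE 0.18, edgeR adjusted p = 0.000172). Tie1 stood at 3.39, 3.85, 3.71 and 7.14 CPM in the Tet-TKO libraries and at 0.575 and 0.778 CPM in the WT host libraries (log2 fold change 2.49, SE 0.42, edgeR adjusted p = 0.00649). Both were called higher in the Tet-TKO sums, which come almost wholly from cluster 18, than in the WT host sums, which come mostly from cluster 7. Tie1 missed the call in 7 of 21 alternatives, among them either WT host library left out (edgeR adjusted p up to 0.119). They stand beside 3.45% of genes called in either direction and 2.01% of 10779 genes called higher in that class. By edgeR Etv2, Erg, Cdh5 and Tek were not called, with log2 fold changes of 1.32, 2.66, 2.64 and -1.33. DESeq2 called 5 of the 7 members tested, Etv2, Erg and Cdh5 among them, and 4.80% of all genes in the class.

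Erythroid markers summed to 10474 to 35455 CPM in Tet-TKO and 61824 to 77637 CPM in WT host libraries over the blood progenitor-like class and to 10474 to 35149 CPM in Tet-TKO and 15052 to 16493 CPM in WT host libraries over cluster 18. Within cluster 18 alone the differences of Fli1 and Tie1 were not seen. Fli1 stood there at 55.4, 43.4, 42.6 and 45.2 CPM in the Tet-TKO libraries and at 46.8 and 47.7 CPM in the WT host libraries (log2 fold change -0.0028, SE 0.21, edgeR adjusted p = 1), and Tie1 at 3.39, 3.87, 3.79 and 7.14 CPM in the Tet-TKO libraries and at 2.38 and 8.67 CPM in the WT host libraries (log2 fold change -0.0085, SE 0.69, edgeR adjusted p = 1). For Fli1 the WT host values fell inside the Tet-TKO range. Of the 9242 genes tested in cluster 18, edgeR called 0 (0%), with 380 at an unadjusted p under 0.05, and DESeq2 called 4, none of them among the 10. The 91 WT host cells of cluster 18 and the 754 Tet-TKO cells carried Fli1 at overlapping levels. Cluster 7 held 3 Tet-TKO and 1412 WT host cells.

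Tek was called lower in the mesenchyme-like class, going from 44.8 and 63.9 CPM in the WT host libraries to 10.7, 17.6, 17.5 and 21.1 CPM in the Tet-TKO libraries (log2 fold change -1.76, SE 0.22, edgeR adjusted p = 0.00493). All Tet-TKO values were below both WT host values, as for 13.7% of all genes tested. It was the 1 of 5 members tested that edgeR called in this class, where 0.990% of 12327 genes were called and 0.690% were called lower, and DESeq2 called 2, Tek and Flt1, beside 2.33% of all genes. This class too was filled unequally: clusters 36 and 47 held 297 and 102 WT host but 43 and 5 Tet-TKO cells, and cluster 21 held 31 WT host and 684 Tet-TKO cells. In cluster 13, the one that both genotypes filled, Tek stood at 9.15, 17.1, 17.1 and 18.3 CPM in the Tet-TKO libraries and at 19.9 and 33.7 CPM in the WT host libraries (log2 fold change -0.83, SE 0.29, edgeR adjusted p = 0.246). The Tet-TKO values were below both WT host values there too, as for 12.6% of all genes tested, without passing the call. Of 4 members tested in cluster 13, edgeR called 0 (0.632% of 11237 genes), 2 had an unadjusted p under 0.05, beside 13.3% of all genes, and DESeq2 called 0. Without WT host library 2 the whole-class difference also missed the call (edgeR adjusted p = 0.101), as it did without WT host library 1 (0.0279) or Tet-TKO library 3 (0.0131). Endothelium markers in the class summed to 79.8 to 133 CPM in Tet-TKO and 136 to 142 CPM in WT host libraries.

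Etv2 fell in the somitic and paraxial mesoderm-like class, which is the single cluster 29 with Meox1 and Tcf15 among its leading genes. It stood at 8.01, 8.04, 3.82 and 6.95 CPM in the Tet-TKO libraries and at 45.3 and 39.7 CPM in the WT host libraries (log2 fold change -2.76, SE 0.28, edgeR adjusted p = 0.000229). Every Tet-TKO library was below both WT host libraries, as for 9.70% of all genes tested, and the fitted ratio was 0.148. Etv2 was the 1 of 3 members tested that was called there, by edgeR and by DESeq2 (which called 0.463% of all genes), beside 0.401% of 9725 genes called in either direction and 0.226% called lower. Kdr (9.76 to 34 CPM in Tet-TKO, 10.2 and 11.2 CPM in WT host) and Fli1 (8.01 to 18.7 CPM against 8.09 and 10.0 CPM) overlapped in the same cells. Erg and Sox7 had 0 UMIs in all 6 libraries of this class, which allows up to 4.01 CPM in the shallowest library, and Tek had at most 0.539 and Cdh5 at most 0.893 CPM. The 10 endothelium markers summed to 52.1 to 88.1 CPM in Tet-TKO and 86.2 to 126 CPM in WT host libraries. When all variable genes, the 10 included, defined the clusters, the difference was no longer called (log2 fold change -1.54, edgeR adjusted p = 0.559).

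**Figure D5:**
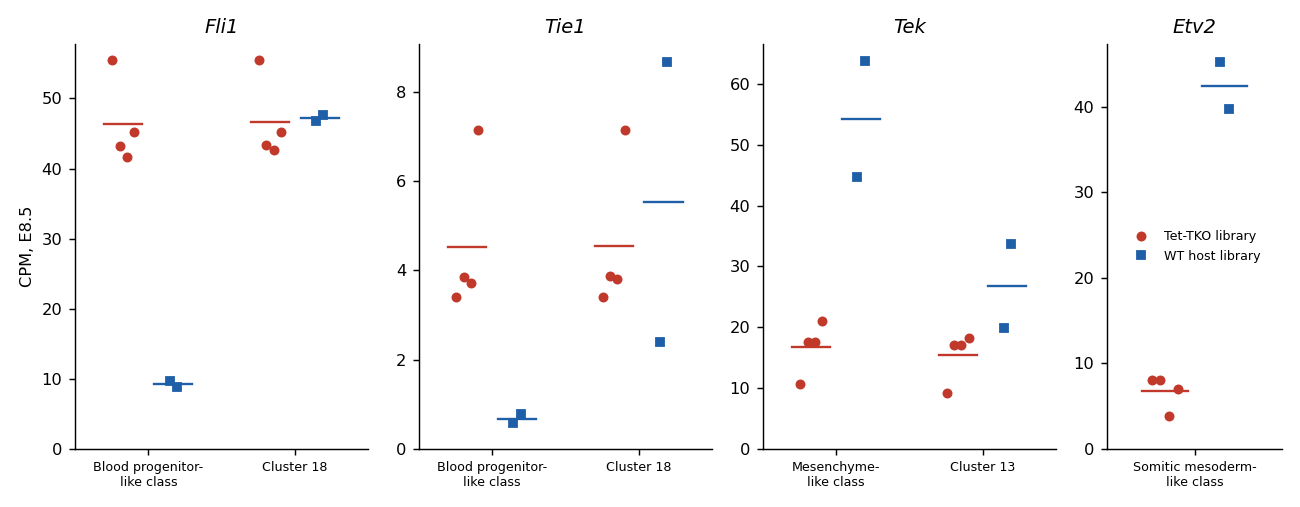
CPM at E8.5 of Fli1, Tie1, Tek and Etv2 in each library, for classes in which they were called and for the cluster of that class filled by both genotypes. Circles are Tet-TKO and squares WT host libraries, and bars are group means. Fli1 differs in the blood progenitor-like class (46.4 against 9.29 CPM on average) and overlaps in cluster 18, and Etv2 is lower in every Tet-TKO library of the somitic and paraxial mesoderm-like class.

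In the allantois-like class 0 of 7 members tested were called by edgeR (0.784% of 13012 genes tested), 3 had an unadjusted p under 0.05, beside 14.1% of all genes, and DESeq2 called 0. Etv2 stood there at 95.6, 55.8, 62.4 and 50.2 CPM in the Tet-TKO libraries and at 124 and 84.6 CPM in the WT host libraries (log2 fold change -0.64, SE 0.29, edgeR adjusted p = 0.368), and Kdr at 106, 77.4, 115 and 89.3 CPM in the Tet-TKO libraries and at 83.5 and 75.3 CPM in the WT host libraries (log2 fold change 0.28, SE 0.17, edgeR adjusted p = 0.491). Both overlapped between genotypes. Of the 7, 3 had every Tet-TKO library below both WT host libraries, against 16.8% of all genes tested. These were Tek, Sox7 and Fli1. Fli1 stood at 8.80, 11.4, 10.0 and 7.61 CPM in the Tet-TKO libraries and at 14.3 and 16.5 CPM in the WT host libraries (log2 fold change -0.67, SE 0.20, edgeR adjusted p = 0.169). The class joined cluster 0 (2004 Tet-TKO and 67 WT host cells), cluster 25 (2 and 598) and cluster 8 (932 and 449). In cluster 8, Kdr stood at 39.2, 38.1, 33.1 and 42.9 CPM in the Tet-TKO libraries and at 20.2 and 22 CPM in the WT host libraries, above the WT host values in every Tet-TKO library, as were 11.9% of all genes tested there, without passing the call (log2 fold change 0.85, SE 0.19, edgeR adjusted p = 0.0567). Of 4 members tested in cluster 8, edgeR called 0 (0.747% of 10577 genes), 2 had an unadjusted p under 0.05, beside 12.8% of all genes, and DESeq2 called 0. In 2 of the 4 every Tet-TKO library was below both WT host libraries, against 13.9% of all genes tested in cluster 8. They were Tek, at 1.10, 1.53, 1.53 and 2.38 CPM in the Tet-TKO libraries and at 5.30 and 5.16 CPM in the WT host libraries (log2 fold change -1.76, SE 0.38, edgeR adjusted p = 0.0459), and Fli1, at 9.66, 12.8, 11.7 and 10.3 CPM in the Tet-TKO libraries and at 14.1 and 16.5 CPM in the WT host libraries (log2 fold change -0.42, SE 0.22, edgeR adjusted p = 0.459).

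Summed over whole E8.5 libraries, 0 of the 10 genes were called (2.64% of 21074 genes tested), 3 had an unadjusted p under 0.05, beside 26.7% of all genes, and DESeq2 called 0. In such sums, fewer cells of a type and less RNA per cell cannot be told apart. Sox18 stood at 4.56, 4.13, 3.63 and 2.19 CPM in the Tet-TKO libraries and at 7.99 and 6.31 CPM in the WT host libraries (log2 fold change -1.03, SE 0.32, edgeR adjusted p = 0.0899), and Tek at 3.79, 4.82, 5.00 and 3.60 CPM in the Tet-TKO libraries and at 6.51 and 7.18 CPM in the WT host libraries (log2 fold change -0.75, SE 0.19, edgeR adjusted p = 0.0498). Both were below the WT host values in every Tet-TKO library. Kdr stood at 54.1, 49.4, 44.8 and 39.7 CPM in the Tet-TKO libraries and at 34.7 and 27.8 CPM in the WT host libraries, with every Tet-TKO library above both WT host libraries (log2 fold change 0.52, SE 0.20, edgeR adjusted p = 0.154). For comparison, 17.9% of all genes tested lay below in every Tet-TKO library and 23.0% above. As whole groups, cell numbers of the endothelium-like class and of cluster 12 were not shown to differ: the endothelium-like class made up 2.56 ± 0.733% of cells in Tet-TKO (SD, n = 4) and 3.26 ± 0.429% in WT host libraries (SD, n = 2, edgeR log2 fold change -0.33, SE 0.44, adjusted p = 0.559). The clusters of the endothelium-like class were filled in opposite directions, cluster 26 with 0.634 ± 0.516% of Tet-TKO (SD, n = 4) and 2.96 ± 0.270% of WT host cells (SD, n = 2), and cluster 28 with 1.93 ± 1.13% and 0.300 ± 0.158%. With the clusters tested apart, both passed the threshold for cell numbers. They were taken apart after their unequal filling was seen, and this fit was not repeated under the alternatives, so its p-values are a description only. The edgeR log2 fold change was -2.37 (adjusted p = 0.0195) for cluster 26 and 2.71 (adjusted p = 0.0207) for cluster 28. Cluster 12 made up 2.61 ± 0.947% and 2.18 ± 0.40% (edgeR log2 fold change 0.28, SE 0.49, adjusted p = 0.644).

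Of 34 other genes of VEGF, angiopoietin, apelin, Notch and BMP9 signalling and of endothelial transcription factors, 30 were tested in the endothelium-like class. By edgeR 2 were called lower in Tet-TKO cells, 0 higher, and 28 were not called, beside 0.886% of 10605 genes called in either direction. DESeq2 called 3 lower, Klf2 besides the same 2 genes, and 0 higher, beside 1.27% of all genes. Apln, the ligand of the apelin receptor, stood at 5.46, 9.85, 6.18 and 0 CPM in the Tet-TKO libraries and at 40.3 and 37.8 CPM in the WT host libraries (log2 fold change -2.56, SE 0.37, edgeR adjusted p = 0.00384). Its 0 UMIs in Tet-TKO library 4, from 20 cells, allow up to 3.95 CPM. Foxc2, a forkhead factor of arterial and lymphatic development, stood at 10.9, 11.2, 15.2 and 17.1 CPM in the Tet-TKO libraries and at 37.3 and 43.4 CPM in the WT host libraries (log2 fold change -1.64, SE 0.21, edgeR adjusted p = 0.00197). For both, no Tet-TKO library reached the WT host range. The sums of Tet-TKO libraries 1 to 3 come mostly from cluster 28 and those of the other libraries from cluster 26. In each of these clusters alone edgeR called 0 of 26 pathway genes tested, beside 0.389% of all genes in cluster 26 and 0.0474% in cluster 28. Unadjusted, 10 had p under 0.05 in cluster 26 (beside 13.6% of all genes) and 3 in cluster 28 (beside 4.12%). DESeq2 called 0 and 0, beside 33 of 6163 and 4 of 8447 genes tested. Apln had a log2 fold change of -1.63 (SE 0.40) in cluster 26 and 0.15 (SE 1.06) in cluster 28, and Foxc2 of -0.86 (SE 0.27) and 1.65 (SE 0.85). With either WT host library left out, neither passed the call, and Apln also lost it without Tet-TKO library 1 (edgeR adjusted p = 0.0103). Without WT host library 1 and library 2, the edgeR adjusted p was 0.0663 and 0.0383 for Apln and 0.0346 and 0.0489 for Foxc2. The apelin receptor Aplnr was not called, at 115, 108, 139 and 108 CPM in the Tet-TKO libraries and at 97.2 and 80.8 CPM in the WT host libraries. The median log2 fold change of the pathway genes tested was -0.36.

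Of the 28 pathway genes tested in cluster 12, 1 was called lower and 0 higher by edgeR. Among all 10305 genes tested there, 0.951% were called in either direction and 0.553% lower. DESeq2 called the same gene lower and 1, Nrp2, higher, beside 1.52% of all genes. Acvrl1 (ALK1), the endothelial receptor for BMP9, stood at 24.8, 26.5, 27.5 and 25.9 CPM in the Tet-TKO libraries and at 62.3 and 47.6 CPM in the WT host libraries (log2 fold change -1.09, SE 0.17, edgeR adjusted p = 0.00826). Acvrl1 kept its call under 13 of 20 alternatives and lost it under 7. It lost the call when any 1 library other than Tet-TKO library 4 was left out, with an edgeR adjusted p of up to 0.242, reached without WT host library 1. The same gene was called lower in the allantois-like class and in its cluster 8, with log2 fold changes of -2.37 and -2.17, values noticed after the tests. The VEGF ligand genes Vegfa, Vegfb and Vegfc were tested in both groups and not called by edgeR, and neither were the VEGF co-receptor genes Nrp1 and Nrp2 or the VEGF-C receptor gene Flt4. The median log2 fold change of the pathway genes was -0.41 in cluster 12.

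Over the 162 sums of a class or cluster and a library at E8.5, the genes whose levels went most nearly with each member were named. Pearson's r of log2(CPM + 1), taken over 12286 genes, is given as a description, because the sums share libraries and cell types. Tie1 and Erg were among each other's 3 nearest genes (r = 0.945), and Erg was the nearest to Cdh5 (r = 0.928). Tie1 and Erg each had Samsn1 in first place (r = 0.953 and 0.962). Sox7 came nearest to Csgalnact1, Cdh5 and Esam (r = 0.860 to 0.822), and Sox18 to Icam2, Gimap4 and Grap (r = 0.797 to 0.784). Tek came nearest to Tmem204, Egfl7 and Grap (r = 0.821 to 0.782), and Fli1 to Gm37474, Ctla2a and Gm37082 (r = 0.836 to 0.798). Kdr came nearest to Eng, Adgra2 and Itpripl2 (r = 0.784 to 0.768), Flt1 to Adgrf5, Myzap and Itpkb (r = 0.740 to 0.726) and Etv2 to Kdr, Mmp9 and Lax1 (r = 0.738 to 0.697).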

How the data were processed

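The 8 libraries hold UMI counts (genes by barcodes), which the authors made with Cell Ranger on mm10 (GRCm38.92 annotation plus tdTomato) and deposited without normalization; the count header names Cell Ranger 3.1.0, and the methods name another version. Following the methods, a cell was kept from 1500 UMIs upward if mitochondrial genes took no more than 30% and ribosomal genes no more than 35% of them. Per stage, 2500 variable genes, without the 10 members and the pathway list, gave 50 principal components, corrected between libraries with 20 mutual nearest neighbours and clustered by Leiden at resolution 2 over 15 neighbours (scanpy 1.11.5, leidenalg 0.10.2, Python 3.11.15). A cluster took a class name where 3 or more markers of that class were raised, by a mean log2 fold of 1 or more, with a lead of 0.2 over the next class. Clusters whose 10 leading genes held more markers of some other class stayed unnamed, as did those with far fewer UMIs than their libraries and no marker of the class among these 10. Doublets were removed only as an alternative.

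Cells are not replicates. UMI counts were summed per class and library (at least 10 cells) and tested with the quasi-likelihood test of edgeR 4.0.16 in R 4.3.3 (filterByExpr, TMM, no block), adjusted by Benjamini and Hochberg over all genes; DESeq2 1.42.0 was an alternative. Calls needed an adjusted p under 0.01 and a log2 fold change of 1 or more in either direction. Cell numbers were tested with edgeR over 33 classes at an adjusted p under 0.05, and over 35 with the endothelium-like and blood progenitor-like classes split into clusters. E7.5 values have exact Poisson or binomial intervals. The fits were tested on simulated data. The alternatives were other size factors and filters, no minimum fold change, DESeq2, other cell sets and clusterings, each library left out, a replicate block, and Tet-TKO libraries summed in pairs.

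Members, markers and the pathway list were chosen with earlier results of these data known. Named are all 10 members, up to 8 called pathway genes in the endothelium-like class and in the haematoendothelial progenitor-like class (here cluster 12), the 3 genes most like each member among those with at least 20 CPM in a sum, tdTomato and the Tet genes. Other pathway genes were named for their role after their values were seen. Reads of a gene and its near-identical copies cannot be told apart.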

Additional observations from a re-analysis of the deposited data

Results flagged for a closer look

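Dixon's ratio was taken for the 4 Tet-TKO libraries over 32 sets of values, the 10 genes in the endothelium-like class, in cluster 12 and in whole libraries and the cell shares of the first 2. It set 1 library apart in 4 of them, and chance alone does so in about 1 of 20 sets. All 4 were in the endothelium-like class, where Tet-TKO library 3 has 43 cells and library 4 has 20. Etv2 stood at 274 CPM in Tet-TKO library 4 and at 65.8 to 77.6 CPM in the other 3. Flt1 stood at 175 CPM in Tet-TKO library 3 and at 85.7 to 99.8 CPM in the others, Erg at 68 against 23 to 28.2 CPM, and Cdh5 at 228 against 184 to 188 CPM. The Tet-TKO values of these genes in cluster 12 were not set apart in this way.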

How the results depend on the processing

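Sox18 in cluster 12 passed the call under 18 of 20 alternatives, all except the 2 that leave out a WT host library. Each such count of kept calls includes the setting without a minimum fold change, which every called gene passes by construction. In the endothelium-like class 1 member, Etv2, was called with at least 30 cells per sum (1), without batch correction (1) and with a replicate block (1), and 0 to 1 with a library left out. The 94 genes called there became 307 with no filter on low counts, 411 with the block and 17 to 127 with a library left out. In cluster 12, 2 members, Sox18 and Flt1, were called with no filter, 2 with the block and 2 with at least 30 cells, and 0 to 2 with a library left out. The 98 genes called became 157 with DESeq2, 328 with no filter, 357 with the block and 11 to 110 with a library left out. In whole libraries the 556 genes called became 1442 with DESeq2, 941 with no filter, 1700 with the block, 111 to 235 with a library left out and 0 with Tet-TKO libraries summed in pairs (edgeR, 3885 at an unadjusted p under 0.05). The 4 member calls in the blood progenitor-, mesenchyme-, somitic- and allantois-like classes became 8 with DESeq2, 10 with no filter, 9 with the block, 2 when all variable genes defined clusters, 2 to 5 with a library left out, and 1 when clusters 18, 8 and 13 stood in for their classes. The share of all genes called rose with DESeq2 as well. It went from 3.45 to 4.80% in the blood progenitor-, 0.990 to 2.33% in the mesenchyme- and 0.401 to 0.463% in the somitic-like class. For the allantois-like class and the other alternatives this share is not given here. The member counts are therefore not read as a result about the members. The interaction gave 0 to 1 member calls with a Tet-TKO library left out, the 1 being Etv2 without library 4. For those fits too the share of all genes called is not given here.

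The replicate numbers of both genotypes share only 1 and 2. Deviations of same-numbered libraries correlated at 0.31 and -0.045 in whole libraries. With only 2 WT host libraries, their deviations from the mean mirror each other, so this check cannot decide on pairing. The study compared cell type proportions of each Tet-TKO sample with its matching WT host. The numbers were not taken as pairs, because no match by number is stated. Both fractions were sorted from the same pooled embryos, so some libraries may match, but which of the 4 Tet-TKO libraries match which of the 2 WT host libraries is not given in the sources used here. The block raised the counts of calls above and turned the sign of Erg in the endothelium-like class (-0.065). Its effects rest on libraries 1 and 2 of each genotype, with hardly any freedom left to measure spread, so calls with the block are not read as support.

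Signs of values that were not called also turned in the endothelium-like class. With a library left out Tek ran from -0.29 to 0.089, Tie1 from -0.12 to 0.0061, Erg from -0.050 to 0.57 (-0.050 without Tet-TKO library 3) and Sox7 from -0.080 to 0.10 on the log2 scale. Tek was 0.016 with libraries summed in pairs and 0.013 without batch correction. Tie1 was 0.0061 with at least 30 cells, 0.0051 without correction and 0.0015 with all variable genes. Sox7 was -0.0081 with sums of counts only, -0.022 without doublets and -0.10 in cells with matching tdTomato, and Erg in cluster 12 was 0.22 without correction and 0.14 with all variable genes. In cluster 26 alone Etv2 was 0.82 and Sox7 -0.56. In cluster 28 alone Etv2 was 0.37, Flt1 0.95, Tek 0.61, Tie1 0.021, Sox18 0.41 and Cdh5 0.73. In cluster 18 alone Fli1 was -0.00280 and Tie1 -0.00851. Single clusters were chosen after seeing the data. Tie1 in the blood progenitor-like class kept its call under 14 of 21 alternatives and Tek in the mesenchyme-like class under 16 of 21. Each lost it, among others, when any WT host library was left out. The cell number results of the whole endothelium-like class and of cluster 12 kept their direction and stayed above the threshold under all 16 alternatives.

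With all variable genes the E7.5 ratio was 0.686 for Etv2, 0.315 for Flt1, 1.13 for Fli1 and 1.69 for Sox7, outside their main intervals. The mean share of cells with a UMI in cluster 12 depended on depth. For Sox18 it was 48.4% in Tet-TKO and 65.7% in WT host libraries unthinned and 10.0% and 26.2% at 3000 UMIs. For Flt1 it was 50.0% and 54.7% unthinned and 12.4% and 17.5% at 3000 UMIs. The causes of these changes were not tested. Few cells limit the vascular sums, in Tet-TKO libraries 3 and 4 and, in cluster 28, also in the WT host libraries.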
